A study of Homo sapiens with 24 samples.

Results

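Bleomycin and palbociclib stop the growth of cancer cells by different routes, and the mRNA of SKBR3 cells made senescent by one was set here directly against that of cells made senescent by the other. The comparison took the 3 bleomycin and the 3 palbociclib libraries, 6 of the 24 libraries of the series, which were picked by their treatment label. The comparison itself was chosen with earlier results of these data known. All 13829 genes with enough reads were tested, of 14493 in the table of read counts.

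SKBR3 is an established human breast cancer line of luminal type with an amplified ERBB2 (HER2) gene. Bleomycin was given at 10 μmol/L and palbociclib, which the labels spell Palboclib, at 1 μmol/L, and the cells were harvested on day 7. The labels name a refeed on day 3, where the methods of the study give fresh drug every 3 days. Untreated cells collected on day 0, the reference of the study, and untreated cells collected on day 7 serve as the background, with 3 libraries each. Each drug was measured at 1 dose, which was not matched to the other, in 1 cell line, so that the drug and its dose cannot be told apart. The labels do not say that replicates came from separate cultures, so p-values measure only the spread between these libraries, which may be technical.

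Bleomycin is a glycopeptide that binds iron and cuts DNA, leaving single and double-strand breaks that call up the DNA damage response. Palbociclib inhibits CDK4 and CDK6, the kinases that with D-type cyclins phosphorylate the retinoblastoma protein RB, so that RB stays bound to E2F factors and the genes of DNA replication are not transcribed. Either route can end in senescence, a lasting arrest in which cells stay metabolically active and secrete cytokines, proteases and growth factors. The arrest was not equally lasting in the study's own colony test, which used higher doses of both drugs than the sequenced cells received. There, palbociclib cells regained part of their colony formation once the drug was removed, and bleomycin cells formed no colonies. DNA that reaches the cytoplasm after breaks can be sensed by cGAS and STING, and RNA by RIG-I-like receptors, which leads to interferon and to a set of antiviral genes switched on through factors that include STAT2 and IRF9.

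The largest differences between both drugs were in interferon-stimulated genes, so their promoters are shown first. The complex that holds STAT2 and IRF9 binds the interferon-stimulated response element, whose core was searched on both strands as GAAANNGAAA in the window from 250 bases before to 50 after each RefSeq start site (GRCh38.p14). Of the 27 interferon-stimulated genes tested, 23 had a promoter in the RefSeq table and 18 of these (78.3%) held the core in at least 1 window. The same letters were found in 4.38% of all 27305 genes with a promoter and in 3.77% of the 10688 tested genes with one. The list is of genes switched on through this complex, so its high share follows from the list rather than from these data. Among genes called higher in bleomycin the share was 5.34%, and among those called higher in palbociclib 2.74%. Among MHC class I genes, 10 of 15 (66.7%) held it. These shares describe sequence and do not show binding. The promoters of IFI6, OAS3, IFITM1, BST2 and TAP1 are printed 5′ to 3′ with every match in capitals (matches may overlap). They are examples that hold 2 or more matches and do not stand for all genes with large differences. The windows of OAS1 (log2 fold change of bleomycin over palbociclib 3.435), UBE2L6 (2.80) and IRF9 (2.67) held no match. That of MX1 (3.89) held 1. OAS2, which had the largest difference, is not in the RefSeq table.
IFI6 promoter, chr1:27672143-27672442, minus strand: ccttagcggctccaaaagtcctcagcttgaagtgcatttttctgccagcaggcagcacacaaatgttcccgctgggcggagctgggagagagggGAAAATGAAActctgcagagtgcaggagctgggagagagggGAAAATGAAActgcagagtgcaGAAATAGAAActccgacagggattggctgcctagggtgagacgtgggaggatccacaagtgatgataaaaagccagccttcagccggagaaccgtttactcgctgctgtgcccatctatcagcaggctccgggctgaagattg
OAS3 promoter, chr12:112938224-112938523, plus strand: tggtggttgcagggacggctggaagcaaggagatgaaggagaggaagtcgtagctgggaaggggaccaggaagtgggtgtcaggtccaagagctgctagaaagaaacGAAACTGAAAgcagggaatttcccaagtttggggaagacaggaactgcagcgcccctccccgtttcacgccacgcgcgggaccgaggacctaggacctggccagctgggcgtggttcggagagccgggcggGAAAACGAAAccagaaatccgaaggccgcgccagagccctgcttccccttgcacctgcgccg
IFITM1 promoter, chr11:313790-314089, plus strand: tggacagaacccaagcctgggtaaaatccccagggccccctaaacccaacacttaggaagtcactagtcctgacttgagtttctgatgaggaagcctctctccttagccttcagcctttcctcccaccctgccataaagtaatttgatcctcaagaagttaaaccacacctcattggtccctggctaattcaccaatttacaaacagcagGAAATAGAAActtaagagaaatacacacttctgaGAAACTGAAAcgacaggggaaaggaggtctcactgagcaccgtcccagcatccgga
BST2 promoter, chr19:17405581-17405880, minus strand: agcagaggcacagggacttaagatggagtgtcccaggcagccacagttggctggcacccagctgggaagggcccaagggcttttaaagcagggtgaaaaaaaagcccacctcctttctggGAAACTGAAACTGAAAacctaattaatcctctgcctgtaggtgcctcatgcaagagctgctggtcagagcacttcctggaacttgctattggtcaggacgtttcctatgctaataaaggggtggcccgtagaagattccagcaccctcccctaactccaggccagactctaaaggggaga
TAP1 promoter, chr6:32853655-32853954, minus strand: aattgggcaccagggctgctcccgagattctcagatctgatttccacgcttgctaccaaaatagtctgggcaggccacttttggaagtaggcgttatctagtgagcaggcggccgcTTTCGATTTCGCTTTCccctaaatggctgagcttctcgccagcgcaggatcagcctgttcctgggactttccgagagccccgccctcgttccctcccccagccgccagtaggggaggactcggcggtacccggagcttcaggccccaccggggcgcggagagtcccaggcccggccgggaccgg

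Read depth was even, with 32314679 to 32702078 counts in the bleomycin libraries and 30060164 to 32354645 in the palbociclib libraries. The mRNAs encoded by mitochondrial DNA took 10.0%, 8.28% and 6.63% of the counts in bleomycin and 3.12%, 1.75% and 3.39% in palbociclib. Of the untreated day-0 libraries, replicate 1 stood apart at 8.01%, against 1.22% and 1.51% in the other two. The markers of luminal HER2-amplified epithelium were present in both groups, with ERBB2 at 6786, 5155 and 5121 CPM, the read count scaled to a library of standard size, in bleomycin and 6455, 6413 and 6668 in palbociclib (edgeR adjusted p = 0.336). The epithelial EPCAM (-0.05), FOXA1 (-0.19) and KRT18 (-0.33), given as log2 fold changes of bleomycin over palbociclib, were not called either. The luminal markers KRT8 (-0.54), KRT19 (-0.53) and GATA3 (-0.98) were called higher in palbociclib. Both keratin calls were lost without any 1 library other than bleomycin replicate 1. That of KRT19 was also lost with no filter on low counts and with all 24 libraries in 1 fit. With the replicate numbers as a block KRT18 was called (edgeR adjusted p = 0.0148), and CDH1, encoding E-cadherin, was not analysed here. Every gene in the table has at least 1 count in every library. IFIT1, IFI44L, RSAD2, IL6 and CXCL8 were not analysed here.

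A gene was called when its Benjamini-Hochberg adjusted p in edgeR's quasi-likelihood test was under 0.05. Of the 13829 genes, 2204 (15.9%) were higher in bleomycin and 2031 (14.7%) were higher in palbociclib, while 9594 were not called. The shares of 15.9% and 14.7% are the background for every list count below. With a difference of at least 2-fold as well, 647 (4.68%) were higher in bleomycin and 453 (3.28%) in palbociclib, and at 4-fold the counts were 144 and 58. At 8-fold they were 32 and 6, so the larger differences lay mostly on the bleomycin side. The median log2 fold change of bleomycin over palbociclib over all genes was 0.007. Without palbociclib replicate 1 the calls fell to 1314 and 1172, and without palbociclib replicate 3 to 1252 and 1041. The plot of all genes shows the called genes of both directions over the range of expression.

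**Figure D1:**
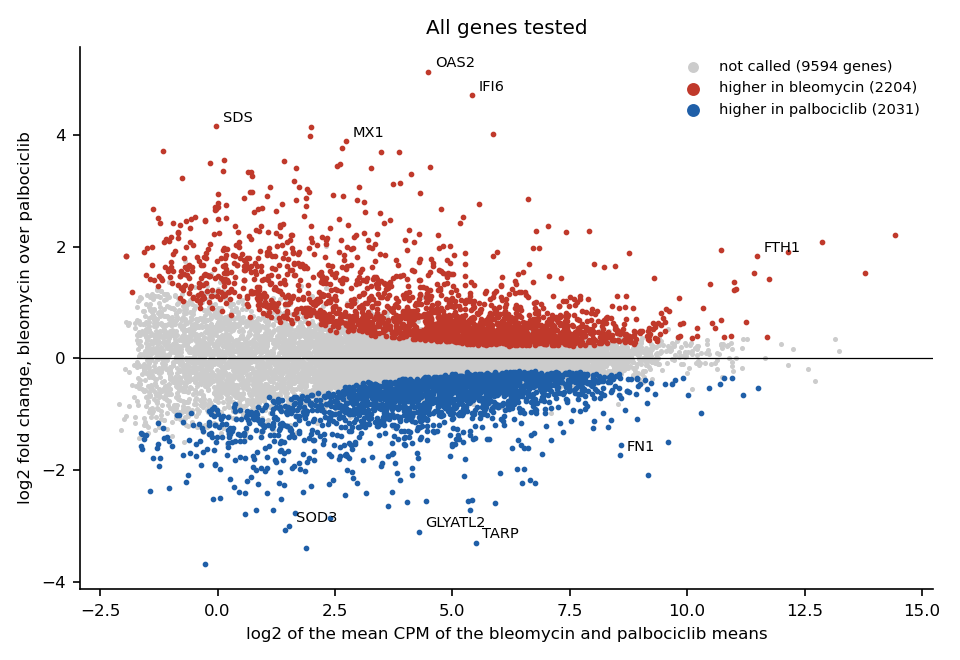
Each point is 1 of the 13829 genes tested, placed by the log2 of its mean CPM over both drugs (horizontal) and its log2 fold change of bleomycin over palbociclib (vertical), with red for genes called higher in bleomycin (2204), blue for genes called higher in palbociclib (2031) and grey for the rest. OAS2 at 5.14 and IFI6 at 4.72 are the highest points.

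Interferon-stimulated genes were the group with the largest median difference. Of the 27 tested, 24 were higher in bleomycin, 20 of them by at least 2-fold, and none was higher in palbociclib, with a median log2 fold change of 2.13 against 0.007 for all genes. OAS2, OAS3 and OAS1, which make the 2-5A that activates RNase L, lie side by side on chromosome 12 (GRCh37, OAS1 from 113343661, OAS3 from 113375856, OAS2 from 113416200 to 113449528). In OAS2 (gene ID 4939) the bleomycin libraries had 51.5, 33.1 and 46.5 CPM and the palbociclib libraries 1.04, 1.62 and 1.07. The log2 fold change was 5.14 ± 0.23 (SE, n = 3 and 3, edgeR adjusted p = 4.37e-06). All 3 bleomycin libraries lay far above all 3 palbociclib libraries, and the untreated day-0 mean of 0.728 ± 0.0359 CPM (SD, n = 3) lay a little below the palbociclib values. Against day 0, OAS2 was called higher in palbociclib too (0.77 ± 0.29, edgeR adjusted p = 0.0465).

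IFI6, a mitochondrial antiviral protein, had 95.2, 71.7 and 81.2 CPM in bleomycin and 2.95, 3.43 and 3.04 in palbociclib (log2 fold change 4.72 ± 0.14, edgeR adjusted p = 5.33e-07). OAS3 had 132, 77.8 and 122 CPM against 7.32, 6.6 and 6.48 (4.02 ± 0.20). MX1, a GTPase that blocks viruses, had 15, 8.11 and 14.5 CPM against 0.839, 0.667 and 1.01 (3.89 ± 0.30). The groups did not overlap in IFI6, OAS3 and MX1, as the rule that picked them required, and as in 6621 of the 13829 genes tested. IFITM1, which keeps virus from fusing with the membrane, had 21.5, 17.7 and 22.9 CPM against 1.56, 1.65 and 1.55 (3.70 ± 0.17). BST2, which tethers virions to the cell, had 15.6, 17.4 and 19.8 CPM against 1.68, 1.56 and 1.73 (3.41 ± 0.17). The ubiquitin-like modifier ISG15 had 18.0, 8.84 and 14.3 CPM against 2.11, 2.29 and 1.34 (2.84 ± 0.30). Against untreated day-0 cells, 15 of the 27 genes rose and 5 fell in palbociclib (median 0.64), and 23 rose and 1 fell in bleomycin (median 2.94). OAS3 and IFITM1, whose promoters hold 2 matches each, were among those that fell in palbociclib. Their log2 fold changes there were -1.08 and -0.59, whereas they were higher in bleomycin by 2.94 and 3.12. The 3 members that were not called were MX2 (0.89), USP18 (0.55) and TRIM14 (0.02), of which USP18 was called with the replicate numbers as a block (edgeR adjusted p = 0.0344).

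**Figure D2:**
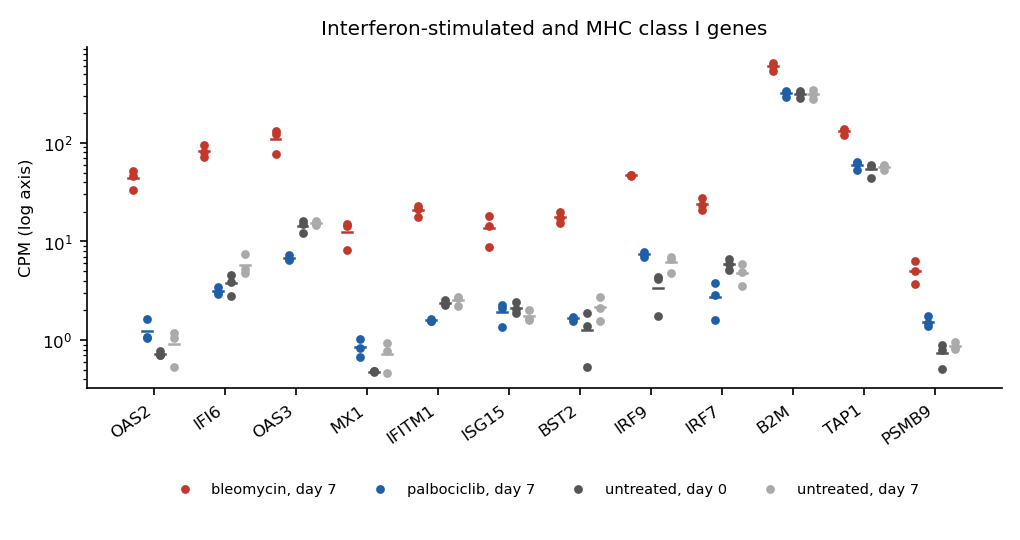
CPM of 12 interferon-stimulated, signalling and MHC class I genes on a log axis, with 1 point for each library, a short line for the group mean, and colours for bleomycin, palbociclib and untreated cells of day 0 and day 7 (n = 3 each). In all 12 genes the 3 bleomycin points lie above the 3 palbociclib points, from a log2 fold change of 5.14 in OAS2 to 0.91 in B2M. Groups that do not overlap, in either direction, were found in 6621 of the 13829 genes tested.

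The sensors and signalling genes upstream of this response moved in part. Of 28 tested, 17 were higher in bleomycin and 1, STAT2, in palbociclib (median 0.55). IRF9, the DNA-binding subunit of the interferon-activated complex, had 47.3, 45.9 and 47.3 CPM in bleomycin and 7.44, 6.92 and 7.76 in palbociclib (2.67 ± 0.10, edgeR adjusted p = 3.40e-06). IRF7, which drives interferon-alpha transcription, had 23.7, 27.7 and 20.8 CPM against 3.82, 1.59 and 2.87 (3.12 ± 0.28). Its palbociclib values lay below the untreated day-0 mean of 5.90 ± 0.756 CPM (SD, n = 3). The RNA sensors DDX58 (RIG-I, 1.63 ± 0.21), DHX58 (1.57 ± 0.22) and IFIH1 (MDA5, 1.22) were higher in bleomycin, as were the nuclease TREX1 (2.22 ± 0.36) and SAMHD1 (1.66 ± 0.16), which breaks down dNTPs. STAT2, which acts in a complex with IRF9, went the other way, with 52.2, 59.9 and 63.2 CPM in bleomycin and 77.7, 66.4 and 88.2 in palbociclib (-0.40 ± 0.12, adjusted p = 0.0347), a call that was lost without bleomycin replicate 1, palbociclib replicate 1 or palbociclib replicate 3. STING1 was called at 0.76, but not without bleomycin replicate 3 or any 1 of the palbociclib libraries. The kinases TBK1 (0.08), TYK2 (0.03) and JAK2 (-0.13), the adaptor MAVS (0.01) and IRF3 (0.07) were not called.

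MHC class I antigen presentation followed the same direction with smaller differences. Of 19 genes, 14 were higher in bleomycin and none in palbociclib (median 0.90). NLRC5, the transactivator of MHC class I genes, had 5.95, 6.51 and 6.95 CPM in bleomycin and 0.839, 0.857 and 0.955 in palbociclib (2.87 ± 0.21). The immunoproteasome subunit PSMB8 had 29.6, 40.0 and 39.1 CPM against 10.4, 12.1 and 9.37 (1.78 ± 0.15). TAP1, a subunit of the peptide transporter whose promoter is shown above, had 134, 119 and 139.6 CPM against 62.1, 52.9 and 63.9 (1.14 ± 0.10). The light chain B2M had 533, 654 and 604 CPM against 289, 328 and 336 (0.91 ± 0.11). For both, the palbociclib values were close to the untreated day-0 means of 54.4 ± 8.61 and 314 ± 24 CPM (SD, n = 3). The list as a whole was not at that level. Against day 0, 13 of the 19 genes rose and 2 fell in palbociclib (median 1.07), and 17 rose and 0 fell in bleomycin (median 1.84). HLA-B (1.55 ± 0.17) and HLA-C (0.98) were called too, but these genes are polymorphic and alike in sequence, so reads may be split between them. The partner of TAP1, TAP2 (0.18), and the chaperones CALR (-0.08) and PDIA3 (0.07) were not called.

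Beside 15.9% and 14.7% of all genes, 3 of 17 ligands of immune checkpoints and natural killer cells were higher in bleomycin and 1 in palbociclib (median 0.07). These were LGALS9 (galectin-9, 2.38 ± 0.24), the NKG2D ligand ULBP1 (1.85 ± 0.24) and TNFRSF14 (2.52 ± 0.40), and on the other side VTCN1 (B7-H4, -0.63 ± 0.14), where 3 were called without bleomycin replicate 1.

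NF-κB genes and secreted factors were also higher in bleomycin in most of the tested members. Of 25 NF-κB subunits and targets, 19 were higher in bleomycin and none in palbociclib (median 0.59). ICAM1, the adhesion molecule for leukocytes, had 60.6, 50.4 and 71.6 CPM against 11.6, 11.4 and 11 (2.42 ± 0.13). The apoptosis inhibitor BIRC3 had 25.6, 37.4 and 34.0 CPM against 6.19, 6.6 and 7.85 (2.24 ± 0.17). The inhibitors of the pathway itself, TNFAIP3 (1.48 ± 0.23) and NFKBIA (1.19), were higher as well. NFKB1 (0.26) and BCL3 (-0.19) were not called.

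Of 31 secreted factors of senescent cells that were tested, out of 59 listed, 20 were higher in bleomycin and 2 in palbociclib, with a median of 1.26, and 1 in palbociclib without palbociclib replicate 3. CSF1, the growth factor of macrophages, had 30.9, 39.2 and 35 CPM against 4.14, 4.79 and 4.63 (2.96 ± 0.14). The chemokine CX3CL1 had 190.4, 188 and 170.2 CPM against 47.9, 45.2 and 45.9 (1.98 ± 0.09), and CCL22 had 16.9, 18.6 and 13.5 CPM against 3.62, 4.89 and 3.37 (2.05 ± 0.20). In CSF1 and CX3CL1 the palbociclib values were close to the untreated day-0 means of 3.87 ± 0.443 and 41.3 ± 6.29 CPM (SD, n = 3). Of the 30 secreted factors tested against day 0 in palbociclib, 15 rose and 4 fell. The stress cytokine GDF15 was far above its day-0 mean of 1.57 ± 0.422 CPM in both drugs, with 36.3, 62.3 and 31.2 CPM in bleomycin and 11.6, 21.6 and 12.4 in palbociclib (1.52 ± 0.30). The IGF-binding proteins split by member. IGFBP5 had 253, 99.0 and 242 CPM in bleomycin and 665, 405 and 662 in palbociclib (-1.54 ± 0.32). IGFBP3 had 7.63, 11.3 and 25.2 CPM against 33.0, 35.9 and 40.1 (-1.30 ± 0.35), a call lost without palbociclib replicate 3. IGFBP2 (1.13) was higher in bleomycin, and so was IGFBP4 (1.56), whose call was lost without bleomycin replicate 1 or 3 or palbociclib replicate 1 or 2 and under DESeq2. IGFBP7 (-0.08) and VEGFA (0.05) were not called.

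Adhesion and matrix genes divided in the same way. Of 21 tested, 10 were higher in bleomycin and 2 in palbociclib (median 0.23), the latter 4 without bleomycin replicate 3. The laminin chain LAMB3 (1.53 ± 0.14), the integrin subunits ITGB3 (2.08 ± 0.41) and ITGA5 (1.32 ± 0.12) and the hyaluronan receptor CD44 (1.46 ± 0.16) were higher in bleomycin. Fibronectin (FN1) was the reverse, with 136, 142 and 252 CPM against 461, 579 and 714 (-1.73 ± 0.24), over a day-0 mean of 74.9 ± 36.1 CPM (SD, n = 3). ITGB6, a subunit of an integrin that activates TGF-β, had 135, 127 and 227 CPM against 333, 319.8 and 404 (-1.11 ± 0.21). Against untreated day-0 cells, FN1 rose by 1.24 ± 0.37 in bleomycin and 2.97 ± 0.34 in palbociclib on the log2 scale. ITGB6 rose by 1.80 ± 0.44 and 2.91 ± 0.39.

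Among the 10 genes with the largest difference on the bleomycin side were 5 that are in none of the interferon lists used here. Absence from these lists does not show that interferon does not act on a gene. ORM1, an acute-phase plasma protein, had 5.41, 6.96 and 10.3 CPM against 0.376, 0.476 and 0.418 (4.15 ± 0.31). The antimicrobial S100A7 (psoriasin) had 5.31, 6.96 and 9.87 CPM against 0.376, 0.508 and 0.507 (3.99 ± 0.31). FLNC, an actin crosslinker, had 8.88, 14.5 and 11.6 CPM against 0.666, 0.921 and 0.985 (3.77 ± 0.26). The helicase HELZ2 had a log2 fold change of 3.70 ± 0.22, and serine dehydratase (SDS) of 4.16 ± 0.51 on few reads, at 2.15, 2.43 and 1.00 CPM against 0.0579, 0.0953 and 0.149. Of 14 S100 genes, 5 were higher in bleomycin and 1 in palbociclib (median 0.29), the latter count 0 without bleomycin replicate 3 or palbociclib replicate 1 or 2. Among the former was S100A9 with 469, 553 and 586 CPM against 166, 180.3 and 164 (1.66 ± 0.10). Of 4 CEACAM surface antigens, 3 were higher in bleomycin and none in palbociclib (median 1.03), with CEACAM5 at 11.8, 17.4 and 13.7 CPM against 1.19, 2.76 and 1.22 (3.06 ± 0.32).

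Markers of other cell types were examined because immune genes moved. Of the leukocyte markers only CD68 is in the table, a lysosomal protein that epithelial cells also make, at 34.3, 56.4 and 35.5 CPM in bleomycin and 8.48, 12.9 and 11 in palbociclib (1.97 ± 0.22), while PTPRC and CD3E were not analysed here. COL1A1 (0.05), the 1 fibroblast marker of 6 in the table, and the endothelial VWF (0.11) and CDH5 (-0.22) were not called. The basal keratin KRT17 was higher in bleomycin, with 4.41, 5.62 and 6.70 CPM against 1.16, 0.699 and 0.478 (2.84 ± 0.33). TP63 (1.19 ± 0.35) was called but lost without bleomycin replicate 3, palbociclib replicate 2 or palbociclib replicate 3 and with all 24 libraries in 1 fit, and ACTA2 (0.94) was not called. In bulk RNA, more cells that make a transcript and more of it in each cell cannot be told apart.

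Genes of the responses to oxidation and to amino acid shortage were more often higher in bleomycin than in palbociclib. Of 24 NRF2 and antioxidant genes, 14 were higher in bleomycin and 1 in palbociclib (median 0.50). Heme oxygenase (HMOX1) had 143, 209 and 152 CPM against 43.1, 53.1 and 32.9 (1.97 ± 0.19), and ferritin heavy chain (FTH1), which stores iron, had 3367, 6228 and 3878 CPM against 1095, 1694 and 998 (1.84 ± 0.27). Malic enzyme (ME1) was on the other side (-0.58 ± 0.12). Of 24 ATF4 targets, 13 were higher in bleomycin and 1 in palbociclib (median 0.53), such as PHGDH, the first enzyme of serine synthesis, with 179, 233 and 167 CPM against 74.6, 114 and 79.7 (1.12 ± 0.17), and asparagine synthetase ASNS with 266, 363 and 255 CPM against 143, 201 and 153 (0.84 ± 0.17). In both drugs replicate 2 had the highest values of these 4 genes. The ATF4 target on the palbociclib side was PSPH (-0.45), which makes serine, and its call was lost without bleomycin replicate 2 or 3 or palbociclib replicate 1 or 2. The replicate block gave 2 on that side in either list. Without palbociclib replicate 1 the counts higher in bleomycin were 8 of 24 in either list, and without palbociclib replicate 3 they were 6 of 24 NRF2 genes and 8 of 24 ATF4 targets. Of 20 genes of the unfolded protein response, 3 were higher in bleomycin and 2 in palbociclib (median -0.07), beside 15.9% and 14.7% of all genes. Among the 3 was the stress sensor ERN1 (IRE1, 1.24 ± 0.27). The 2 became 1 without bleomycin replicate 2 or 3 or any 1 palbociclib library.

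All 13 mRNAs encoded by mitochondrial DNA were higher in bleomycin, with a median of 1.44. COX1, a subunit of cytochrome c oxidase, had 44520, 36160 and 27390 CPM against 8118, 5109 and 10070 (2.22 ± 0.28, edgeR adjusted p = 0.000867). With all 24 libraries in 1 fit, only 7 of the 13 were called. With these genes left out of the library sizes, 2196 genes were higher in bleomycin and 2034 in palbociclib. Of 84 cytosolic ribosomal protein genes, 18 were higher in bleomycin and 1 in palbociclib (median 0.26). The count higher in bleomycin was 51 with the replicate numbers as a block, was 10 without bleomycin replicate 1 or 2 and 33 without bleomycin replicate 3, and was 7, 11 and 2 without palbociclib replicate 1, 2 and 3 and to 3 with all 24 libraries in 1 fit. Of 34 MYC and ribosome biogenesis genes, 1 was higher in bleomycin and 5 in palbociclib (median -0.03), and without palbociclib replicate 1 or 3 the latter count was 1. The bleomycin count was 0 without bleomycin replicate 1 or 2 or any 1 palbociclib library. The count of ribosomal protein genes higher in palbociclib was 0 without palbociclib replicate 1 or 3.

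The cell cycle was the ground the drugs shared. Against untreated day-0 cells, all 40 DNA replication genes fell in bleomycin and 38 of 40 fell in palbociclib, with medians of -1.56 and -1.42. Of 45 mitosis genes, 43 fell in bleomycin and 44 in palbociclib (medians -1.72 and -1.59). These comparisons use the same untreated libraries, and over all genes tested 24.1% were higher and 25.3% lower in bleomycin than in day-0 cells, and 26.0% higher and 27.2% lower in palbociclib. Summed over the 40 replication genes, the libraries had 1858, 1113 and 1689 CPM in bleomycin, 2040, 1879 and 2036 in palbociclib, and 4584, 4857 and 4842 in untreated day-0 cells. Bleomycin replicate 2 was the lowest library in both lists, with 1186 CPM summed over the mitosis genes against 2334 and 1971 in replicates 1 and 3.

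Set directly against each other, 9 of the 40 replication genes were higher in palbociclib and 3 in bleomycin (median -0.26), beside 14.7% and 15.9% of all genes, where the palbociclib count fell to 4 without palbociclib replicate 1 or 3 and the bleomycin count to 1 without bleomycin replicate 1 or 3 or palbociclib replicate 2 or 3. ORC6, a subunit of the origin recognition complex, had 15.6, 6.96 and 15.5 CPM in bleomycin and 31.8, 28.4 and 34.0 in palbociclib (-1.31 ± 0.26, edgeR adjusted p = 0.00602), where the day-0 mean was 28.0 ± 6.36 CPM (SD, n = 3). The helicase subunit MCM3 had 49.4, 30.6 and 53.6 CPM against 79.9, 76.4 and 87.6 (-0.87 ± 0.18), and the clamp loader RFC3 had 31.5, 20.2 and 30.0 CPM against 52.9, 49.4 and 54.4 (-0.94 ± 0.15). CHAF1B, a histone chaperone, was higher in bleomycin (0.47 ± 0.10). The E2F sites TTTCCCGC and TTTGGCGC were found in the promoters of 18 of 36 replication genes (50%), against 2.75% of all genes with a promoter and 4.53% of the tested genes with one. Among genes called higher in bleomycin the share was 3.99%, and among those called higher in palbociclib 3.36%. Of the 45 mitosis genes, 3 were higher in palbociclib and 2 in bleomycin (median -0.03). With the replicate numbers as a block, 10 and 3 were called, and none was higher in palbociclib when any 1 palbociclib library was left out. Without bleomycin replicate 1 the palbociclib count was 6, without bleomycin replicate 2 the counts were 5 and 5, and without bleomycin replicate 3 or any 1 palbociclib library the bleomycin count was 1. CDC25B, the phosphatase that activates CDK1, had 261, 218 and 214 CPM in bleomycin and 123, 115 and 102 in palbociclib (1.04 ± 0.11).

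**Figure D3:**
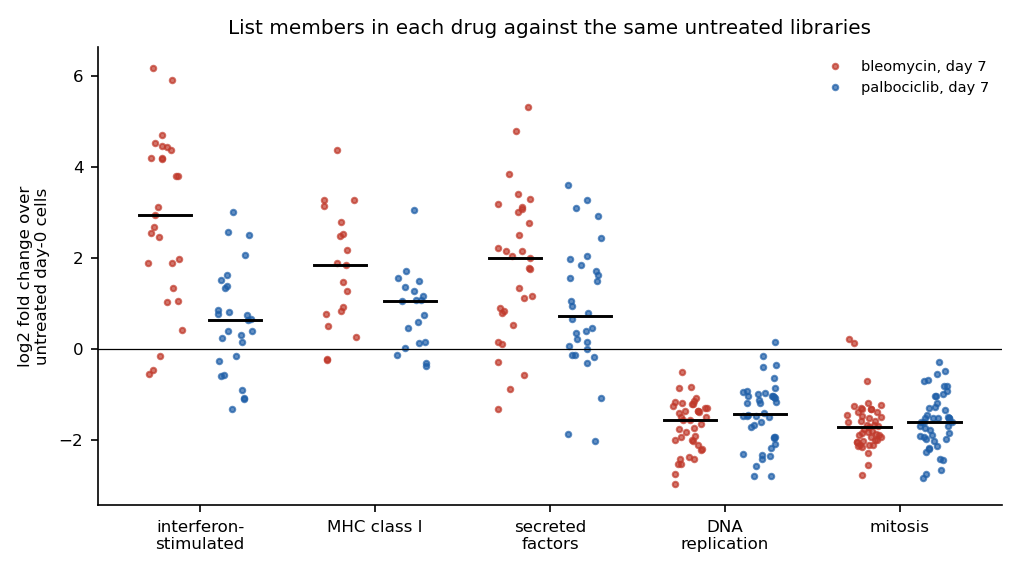
Each point is 1 tested member of a list, with its log2 fold change over untreated day-0 cells in bleomycin (red) and palbociclib (blue), and black lines are medians over the members. Both drugs lie below 0 in the replication and mitosis lists (medians -1.56 and -1.42, -1.72 and -1.59), while the interferon-stimulated genes have medians of 2.94 in bleomycin and 0.64 in palbociclib.

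The targets of palbociclib and the genes around RB were higher in palbociclib in more members than in bleomycin. Of 28 cyclins, CDKs, CDK inhibitors and RB-E2F genes, 11 were higher in palbociclib and 4 in bleomycin (median -0.25), and the latter 4 fell to 2, 1 and 0 without palbociclib replicate 1, 2 and 3. CDK6 had 59.4, 66.4 and 73.6 CPM in bleomycin and 86.6, 95.9 and 102 in palbociclib (-0.51 ± 0.10), and cyclin D1 (CCND1) had 306, 317 and 296 CPM against 437, 496 and 398 (-0.53 ± 0.10). Both were above the untreated day-0 means of 38.3 ± 5.41 and 182 ± 23.1 CPM (SD, n = 3). CDK4 had 67.3, 71.3 and 82.0 CPM against 96.8, 95.9 and 89.6 (-0.35 ± 0.09), a call lost without bleomycin replicate 1 or palbociclib replicate 1 or 2. RB1 (0.18 ± 0.09, edgeR adjusted p = 0.165) and CCND3 (0.07 ± 0.11, edgeR adjusted p = 0.664) were not called. Cyclin E1 (CCNE1), which acts after CDK4 and CDK6, had 14.4, 9.74 and 14.6 CPM against 24.7, 26.3 and 24.3 (-0.96 ± 0.16). E2F3 (-0.91 ± 0.17) and SKP2 (-0.91 ± 0.15), which marks p27 for destruction, were on that side too. CDKN2A, which encodes p16 and ARF, had 8.88, 6.42 and 9.72 CPM against 16.4, 15.2 and 15.7 (-0.92 ± 0.17). CDKN1A, encoding p21, had 33.7, 31.6 and 39.0 CPM against 26.5, 26.3 and 24.4 (0.44 ± 0.11), both above the day-0 mean of 15.6 ± 6.42 CPM (SD, n = 3), and its call was lost without palbociclib replicate 3 and with all 24 libraries in 1 fit.

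Of 46 genes of damage signalling and double-strand break repair, 11 were higher in palbociclib and 4 in bleomycin (median -0.16), beside 14.7% and 15.9% of all genes, and 32 of them fell in bleomycin and 28 in palbociclib against untreated day-0 cells. The 4 higher in bleomycin fell to 2 without bleomycin replicate 3 or palbociclib replicate 1 and to 1 without palbociclib replicate 2 or 3. FANCD2, which marks crosslinks and stalled forks, had 14.2, 9.13 and 16.6 CPM in bleomycin and 30.0, 27.8 and 35 in palbociclib (-1.21 ± 0.20), and the checkpoint kinase CHEK2 had 23.8, 16.5 and 21.1 CPM against 40.5, 40.1 and 37.5 (-0.94 ± 0.13). Of 15 genes of single-strand break and base excision repair, 4 were higher in palbociclib and none in bleomycin (median -0.16, and 2 higher in palbociclib without palbociclib replicate 3). The uracil glycosylase UNG had 49.3, 36.1 and 47.6 CPM against 78.7, 74.0 and 80.4 (-0.81 ± 0.12). BLMH, the hydrolase that inactivates bleomycin, had 82.6, 69.8 and 85.7 CPM against 91.5, 101 and 87.2 (-0.23 ± 0.10, edgeR adjusted p = 0.109) and was not called, and of the 7 genes in its list, with the topoisomerases, TOP3B alone was called (-0.70 ± 0.23), a call lost without any 1 library other than bleomycin replicate 3.

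The p53 target genes were mixed. Of 28, 8 were higher in bleomycin and 3 in palbociclib (median 0.16). PMAIP1 (NOXA), which promotes apoptosis, had 8.41, 13.2 and 11.4 CPM against 3.65, 4.79 and 4.63 (1.34 ± 0.21), and GADD45A had 19.4, 28.1 and 19.6 CPM against 10.4, 12.5 and 8.57 (1.10 ± 0.19). BTG2, which slows proliferation, had 9.82, 10.2 and 12.8 CPM against 26.2, 27.7 and 33.5 (-1.41 ± 0.15), and TP53INP1 had 6.42, 12.8 and 11.4 CPM against 20.5, 21.8 and 24 (-1.11 ± 0.23). Of 14 BCL-2 family genes, 4 were higher in bleomycin and 1 in palbociclib (median 0.27), where the 4 fell to 2 without bleomycin replicate 2 or 3 or palbociclib replicate 1 or 3, and the palbociclib count was 0 without palbociclib replicate 1. Of 15 death receptor and caspase genes, 5 were higher in bleomycin and none in palbociclib (median 0.21, and 3 without palbociclib replicate 3). CASP4, the sensor of intracellular lipopolysaccharide, had 27.3, 36.9 and 31.4 CPM against 13.3, 17.6 and 13.2 (1.12 ± 0.16).

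Of 20 lamins and chromatin proteins, 3 were higher in each drug (median -0.07), beside 15.9% and 14.7% of all genes. Of these, the palbociclib count was 0, 1 and 1 without palbociclib replicate 1, 2 and 3, the bleomycin count was 1 without palbociclib replicate 3 and 5 without bleomycin replicate 2, and the replicate block gave 5 in bleomycin and 6 in palbociclib. Of 31 replication-dependent histone genes tested, 6 were higher in bleomycin and 1 in palbociclib (median 0.20), beside the same 15.9% and 14.7%. Among the 6 was H1-2 with 100.4, 136 and 95.7 CPM against 55.8, 48.3 and 44.3 (1.17 ± 0.15). The 6 became 3 and 2 without palbociclib replicate 1 and 3, and the 1 became 3 without bleomycin replicate 2 and with the replicate block. Histone transcripts mostly lack a poly(A) tail and are nearly alike, so their counts depend on the library kit and on how reads were shared.

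Among the 10 genes with the largest difference on the palbociclib side, TARP and TRGC2 of the T cell receptor gamma locus on chromosome 7 (GRCh37, 38299244 to 38313237 and 38279181 to 38289173) have constant regions alike in sequence, so reads may be shared. TARP had 16.7, 2.11 and 6.52 CPM in bleomycin and 109.8, 59.4 and 78.2 in palbociclib (-3.30 ± 0.55, edgeR adjusted p = 0.00298), and its day-0 mean was 136 ± 20.2 CPM (SD, n = 3). In TARP, TRGC2 (-3.40 ± 0.50), SIGLEC6 (-2.77 ± 0.51), CDH10 (-2.71 ± 0.45) and GPC5 (-2.85 ± 0.30) the day-0 mean was above the bleomycin values, and in TARP, in SIGLEC6, a sialic acid-binding receptor, and in CDH10, a cadherin, it was above the palbociclib values too. The palbociclib values of the other five lay above their day-0 mean. GLYATL2, a glycine acyltransferase, had 5.08, 2.08 and 5.06 CPM in bleomycin and 39.2, 28.4 and 37.3 in palbociclib (-3.10 ± 0.29), with 5.90 ± 3.31 in day-0 cells. Extracellular superoxide dismutase (SOD3) had 0.908, 0.543 and 0.457 CPM against 4.25, 6.73 and 4.39 (-3.01 ± 0.33), with 0.569 ± 0.285 in day-0 cells. The pseudogene BPIFA4P (-3.07 ± 0.40) and the long non-coding RNA DRAIC (-2.79 ± 0.45) followed the same direction. PCDHA7 (-3.69 ± 0.84) had 0.0673, 0.0958 and 0.183 CPM against 3.33, 0.445 and 0.866, on few reads, with a wide spread and in a cluster whose genes share their last exons.

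**Figure D4:**
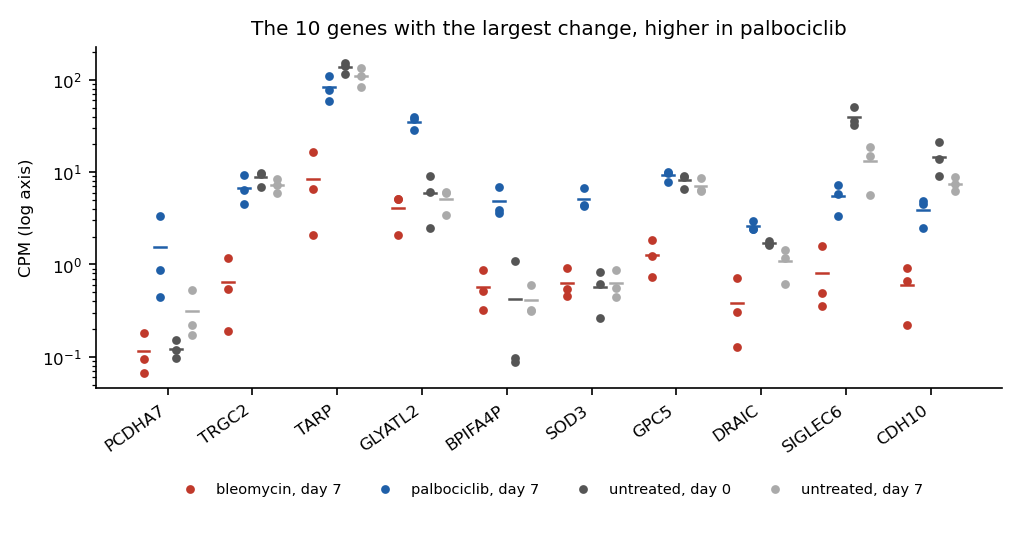
CPM on a log axis of the 10 genes with the largest difference on the palbociclib side, with 1 point for each library and a short line for the group mean (n = 3 in each group). The bleomycin points (red) lie below the palbociclib points (blue) in all 10, as the rule that picked them required, from PCDHA7 at -3.69 to CDH10 at -2.71. The untreated points lie near the bleomycin level in GLYATL2 and SOD3 and near the palbociclib level in TARP, TRGC2 and GPC5.

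Export pumps were more often higher in palbociclib, while fatty acid and cholesterol genes were mixed. Of 10 ABC transporters of drug efflux and sterols, 6 were higher in palbociclib and none in bleomycin (median -0.80). ABCC11, which carries conjugated steroids and nucleotides, had 79.2, 35.8 and 52.7 CPM in bleomycin and 164, 203 and 182 in palbociclib (-1.71 ± 0.23). ABCC4 had 19, 19.8 and 25.9 CPM against 37.7, 58.9 and 64.0 (-1.31 ± 0.20), above a day-0 mean of 6.04 ± 1.2 CPM (SD, n = 3) in both drugs. ABCC5 (-0.98 ± 0.16) and ABCC10 (-0.97 ± 0.18) lay on that side as well. Of 13 fatty acid synthesis genes, 5 were higher in palbociclib and 1 in bleomycin (median -0.27), a palbociclib count of 8 with the replicate block and of 3 without palbociclib replicate 3. THRSP, a lipogenic protein of the breast, had 22.6, 14.5 and 14.1 CPM against 98.2, 121 and 89.0 (-2.59 ± 0.19, edgeR adjusted p = 7.01e-05), and its regulator SREBF1 had 859, 703 and 857 CPM against 1180, 1264 and 1390 (-0.66 ± 0.12). Of 24 cholesterol genes, 5 were higher in bleomycin and 2 in palbociclib (median 0.17), beside 15.9% and 14.7% of all genes. The 5 became 0 with all 24 libraries in 1 fit, and 2 or 3 without bleomycin replicate 2 or any 1 palbociclib library. The palbociclib count became 1 without bleomycin replicate 3 or any 1 palbociclib library. Of 23 glycolysis genes, 3 were higher in each drug (median -0.09), beside the same shares of all genes. PDK1, which restrains pyruvate dehydrogenase, had 9.15, 7.28 and 11 CPM against 24.3, 24.6 and 24.3 (-1.41 ± 0.15). The bleomycin count was 0 without palbociclib replicate 1 or 3, and 5 were higher in palbociclib with the replicate block or without bleomycin replicate 1.

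Luminal identity genes split. Of 28 genes of the ERBB2 amplicon and luminal identity, 8 were higher in bleomycin and 7 in palbociclib (median 0.002), and without palbociclib replicate 3 these were 4 and 3, without palbociclib replicate 1 they were 5 and 3, and the 7 were 4 without bleomycin replicate 3 or palbociclib replicate 2. GATA3, a luminal master regulator, had 97.5, 68.2 and 89.3 CPM in bleomycin and 172, 164 and 167 in palbociclib (-0.98 ± 0.12). MUC1, an apical mucin, was the reverse, with 239.8, 170.3 and 175 CPM against 58.4, 86.3 and 66.5 (1.47 ± 0.17), and EGFR was higher in bleomycin by 0.56 ± 0.10. Of 54 lysosomal genes, 14 were higher in bleomycin and 7 in palbociclib (median 0.10), where the 7 fell to 4, 4 and 2 without palbociclib replicate 1, 2 and 3. The protease CTSS had 7.36, 11 and 15.6 CPM against 2.11, 3.30 and 3.40 (1.95 ± 0.30), and the autophagy receptor SQSTM1 had 1079, 1443 and 1195 CPM against 552, 651 and 559 (1.08 ± 0.13). Of 7 aryl hydrocarbon receptor genes, only AHR itself was called (0.39 ± 0.10, higher in bleomycin), a call lost without any 1 palbociclib library, and the replicate block called 3 in bleomycin and 1 in palbociclib.

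**Figure D5:**
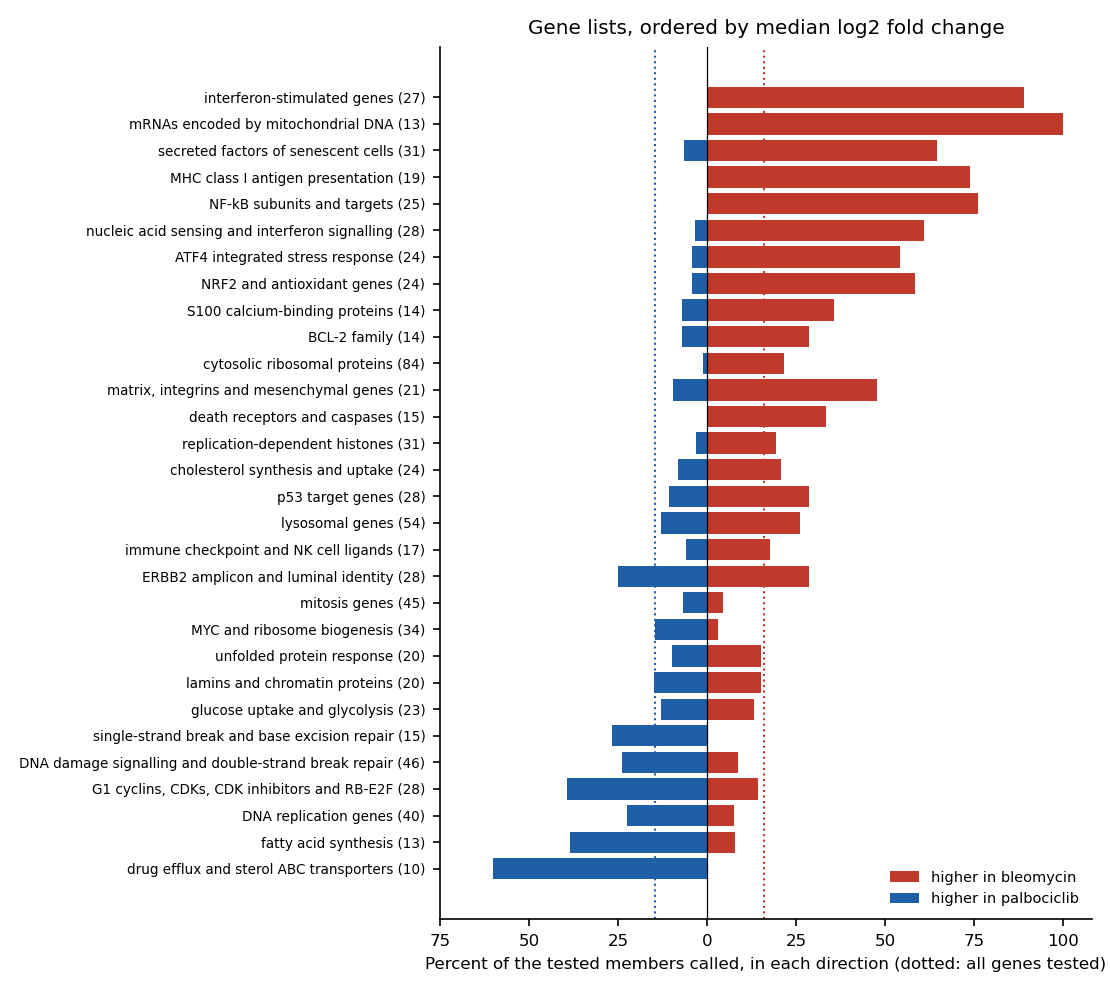
Percent of the tested members of each gene list (number in brackets) that were called higher in bleomycin (red, to the right) or higher in palbociclib (blue, to the left), ordered by median log2 fold change, with dotted lines at 15.9% and 14.7% for all genes tested. Interferon-stimulated genes and mitochondrial mRNAs lie at the top and ABC transporters at the bottom, and only lists with 10 or more tested genes are drawn.

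Untreated cells place each difference. Of the genes higher in bleomycin than in palbociclib, 32.1% were above untreated day-0 cells in bleomycin and not called in palbociclib, 23.5% were below day 0 in palbociclib and not called in bleomycin, and 19.2% were above day 0 in both drugs. Of the genes higher in palbociclib, 34.4% were above day 0 in palbociclib and not called in bleomycin, 26.8% were below day 0 in bleomycin and not called in palbociclib, and 14.7% were below in both. The direction was opposite in both drugs for 119 genes, of which 67 were above day 0 in bleomycin and below it in palbociclib and 52 were the reverse. A gene called in one drug and not in the other is not thereby shown to differ, and in these counts the difference itself is the direct test between both drugs. Without untreated day-0 replicate 1, which had the high mitochondrial share, 3038 genes were higher and 3187 lower in bleomycin, and 3573 higher and 3512 lower in palbociclib, against 3312 and 3478, and 3577 and 3741, with it.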

How the data were processed

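SKBR3 RNA was sequenced by the study as paired-end reads. Per the submitters' processing notes and the methods, the tools were bcl2fastq, HISAT2, StringTie and DESeq2, with GRCh37. The authors deposited whole-number read counts per gene, not normalized. The counting settings and use of strand are not given in the sources used here, and the labels name an mRNA kit where the methods name a total RNA kit.

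Counts of the 3 bleomycin and 3 palbociclib libraries (30060164 to 32702078 each) were filtered (filterByExpr), TMM-normalized and tested 2-sided with edgeR 4.0.16 (glmQLFTest, R 4.3.3), called at an adjusted p under 0.05. Each drug was also set against untreated day-0 cells. CPM were computed with TMM factors over 24 libraries, fold changes are on the log2 scale, and the SE is the log2 fold change over the square root of F. Alternatives were DESeq2 1.42.0, other scalings and filters, all 24 libraries, a replicate block, day-7 controls, and each library left out. Same-numbered bleomycin and palbociclib libraries deviated together (r = 0.163, 0.179 and 0.291, against at most 0.059 for unlike numbers), so the numbers may pair them. The labels do not say whether they mark a shared batch. Counts, SE and adjusted p are from the fit without pairs, except where the replicate block is named. No library pair was identical. The script was tested on simulated data.

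The named genes are the 10 with the largest change in each direction (adjusted p under 0.05, no overlap, a mean of at least 1 CPM in the higher group), drug targets, up to 6 called genes per list and direction plus others that a count needs, and cell type markers. The comparison and the lists were chosen with earlier results of these data known, so lists have counts and medians but no test. Some genes are not reported here.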

Additional observations from a re-analysis of the deposited data

Results flagged for a closer look

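In 9 of the genes picked by the naming rule, each drug differed from untreated day-0 cells in opposite directions, and the direct test between both drugs called the difference. The log2 fold changes of bleomycin over palbociclib were 4.15 in ORM1, 4.02 in OAS3, 3.70 in IFITM1, 3.12 in IRF7, 3.06 in CEACAM5, 1.66 in SAMHD1 and 1.56 in S100P, which were above day 0 in bleomycin and below it in palbociclib. They were -2.79 in DRAIC and -0.98 in GATA3, which were the reverse. Of all genes tested, 119 had this pattern, and both drugs share the same untreated libraries. The smaller side was slight in palbociclib for IFITM1 (log2 fold change over day 0 of -0.59) and GATA3 (0.22).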

How the results depend on the processing

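Higher counts are given first for bleomycin and then for palbociclib. With one library left out, they ranged from 1252 to 2094 and from 1041 to 1929, lowest without palbociclib replicate 3. At an unadjusted p under 0.05 with 2-fold, the rule of the study, they were 694 and 511. The replicate block gave 2770 and 2665, DESeq2 gave 2335 and 2277, and the fit of all 24 libraries gave 2199 and 2241. Against untreated day-0 cells, r was 0.027 to 0.301 for equal replicate numbers and up to 0.044 for unlike ones, so pairing was less clear. There the block gave 3670 higher and 3815 lower in bleomycin and 3704 and 3835 in palbociclib, each within 1.5 times the count without it. Day-7 controls gave 3089 and 3205, and 3027 and 3151. Of 239 named genes, none that was called in the main or the alternative fit changed sign, while sign changes of uncalled genes were not counted. Up to 77 lost their call without palbociclib replicate 3, 60 without palbociclib replicate 1, 16 in the fit of all 24 libraries and 14 with no filter. Between both drugs, the block lost no call of a named gene and added 1, KRT18. It also moved some list counts by over 1.5 times, as given beside those lists. The causes were not tested. Genes with few reads, such as SDS and PCDHA7, are the least precise.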

Other observations

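Transcribed pseudogenes were called more often on the palbociclib side, with 61 of 302 tested (20.2%) higher in palbociclib and 14 (4.64%) higher in bleomycin, against 15.1% and 17.1% of 12261 protein-coding genes. Their median log2 fold change was -0.26. HERC2P2, chosen after its value was seen, had 5.28, 11.8 and 18.2 CPM in bleomycin and 47.6, 52.8 and 107 in palbociclib (-2.55 ± 0.43). Such copies are near-identical to their parent genes and to each other, so counts may be shared between them. Of 768 long non-coding RNAs, 57 (7.42%) were higher in bleomycin and 80 (10.4%) in palbociclib.

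Beside the 13 mitochondrial mRNAs, the 2 ribosomal RNAs of the table, RNR1 and RNR2, and 15 of 19 transfer RNAs, all with mitochondrial gene names, were higher in bleomycin, and none of these 19 was higher in palbociclib.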
